A study of Narcissus tazetta subsp. chinensis with 8 samples.

Results

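Methyltransferase and methionine cycle genes were picked by description from the flower transcriptome of the Chinese narcissus Jinzhanyintai, a cultivar of Narcissus tazetta var. chinensis. A gene was a member where its Swiss-Prot or nr description held, in any case, methyltransferase, adenosylmethionine, adenosylhomocysteinase, methionine synthase or methylenetetrahydrofolate reductase. Of the 49 genes found, 1 was left out by the rule, so 48 of the 1929 genes with a description were members. Descriptions are deposited only for genes the authors called between the days, which in the deposited tables means an FDR (adjusted p-value) below 0.01 and at least a 2-fold change. The authors called 44 members in corolla and 24 in petal, of which 20 were called in both tissues. The difference between days in a tissue where a member was called therefore chose it and is described here without a test.

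RNA was sequenced from corolla and from petal of plantation-grown flowers, in a study of floral scent by its title. Each tissue was taken at early flowering (day 1) and again at full bloom (day 7) in 2 biological repeats, so that corolla day 1, corolla day 7, petal day 1 and petal day 7 had 2 libraries each. All groups shared the cultivar and the natural growing conditions, and no treatment is named in the labels. The labels do not say how many plants or flowers went into a repeat, or how corolla was parted from petal, so p-values measure the spread between these repeats, which may be technical.

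S-adenosylmethionine is the methyl donor of nearly all methyltransferases in plant cells. The methyl cycle renews it: methionine synthase makes methionine with a methyl group from folate, S-adenosylmethionine synthase activates the methionine, and adenosylhomocysteinase clears the product that inhibits methyltransferases. Among the users of the donor, O-methyltransferases act on phenolic compounds of lignin, pigments and scent, while the PMT family, which includes QUASIMODO2 of Arabidopsis, is tied to the methylation of pectin in the Golgi apparatus.

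Levels are FPKM, fragments per kilobase of assembled transcript scaled to the fragments of the library. The depth of the second repeat, relative to the first repeat of day 1 in its tissue, was 0.830 in corolla on day 1, 0.737 in corolla on day 7, 0.810 in petal on day 1 and 0.653 in petal on day 7. Each library held a median of 332.5 to 1629.5 reads for a member called in corolla and 835 to 4279.5 reads for a member called in petal. The second petal library of day 7 stood apart from the first: its members were higher by a median of 0.40 on the log2(FPKM + 1) scale, against 0.18 over all 26460 genes tested. The summed level of 8 genes described as pollen or anther genes was 129.65 to 240.74 FPKM in the corolla libraries and 51.4 to 112.95 FPKM in the petal libraries, which do not overlap. Of these 8 genes, 5 were higher in corolla and 2 in petal by the test between tissues used below. A weak one of the 5, glucan endo-1,3-beta-glucosidase 13 (c53695.graph_c0), was listed at 0 in 3 petal libraries. The 2 higher in petal were c96500.graph_c0 and c97442.graph_c0. On day 1, c97442.graph_c0 had 65.9 and 40.1 FPKM in petal beside 3.94 and 2.23 in corolla. The part of pollen or anther tissue in any difference between corolla and petal given below was not tested, and the tissue labels were not checked against other markers.

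The members were sorted into a methyl cycle group of 11 genes, a PMT family of 13, an O-methyltransferase group of 9, a lipid, sterol and quinone group of 6, a protein group of 2, 1 gene of one-carbon supply and 6 others. The PMT genes shared domains and terms that the rule did not read. All 13 of its genes carried the Pfam domain called putative S-adenosyl-L-methionine-dependent methyltransferase, which 14 of the 1929 described genes held. A Gene Ontology term for the Golgi apparatus stood beside 8 of the 13, beside no other member and beside 23 described genes in all. A term for pectin metabolism of the cell wall stood beside 3 of the 13 and beside 4 described genes in all. In the O-methyltransferase group 6 of 9 genes carried an O-methyltransferase domain.

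Most members were lower on day 7 than on day 1 in both tissues. Both day 7 libraries lay below both day 1 libraries for 41 of 48 members in corolla, where 37.1% of all genes tested did so, and for 39 members in petal, where the share over all genes was 33%. The reverse order held for 6 members in each tissue, against 26.5% of all genes in corolla and 26% in petal. The libraries were apart and lower on day 7 in both tissues for 39 members, among them all 13 PMT genes and all 11 methyl cycle genes. The share of all genes that were lower in both tissues at once was not taken. The median difference between days, day 7 minus day 1 on the log2(FPKM + 1) scale, was -1.37 over the 48 members in corolla and -1.35 in petal, beside -0.06 and -0.05 over all genes tested. By group, the median was -1.62 in corolla and -1.65 in petal for the methyl cycle, -1.40 and -1.30 for the PMT family, and -0.78 and -1.40 for the O-methyltransferases. These counts and medians describe the choice of members. In bulk tissue, fewer cells of a type and less RNA per cell cannot be told apart, and this holds for every level given here.

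**Figure D1:**
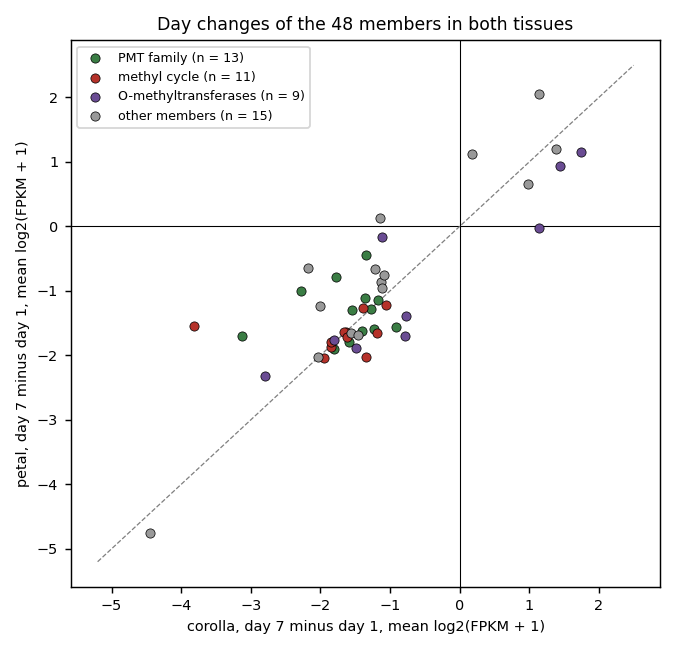
Difference between days of each of the 48 members in corolla (x axis) and in petal (y axis), as mean log2(FPKM + 1) on day 7 minus day 1 over 2 libraries a day, with the dashed line marking equal differences. All 11 methyl cycle genes (red) and all 13 PMT genes (green) lie below 0 on both axes, while the O-methyltransferases (purple) lie on both sides of 0.

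The day effect of members called in corolla was tested in the 4 petal libraries, and that of members called in petal in the 4 corolla libraries. The 20 members called in both tissues enter both tests, and for them the tested tissue also belongs to the choice, so the counts are split below by whether the tested tissue had called the gene too. The test was limma's moderated test on log2(FPKM + 1), two-sided, with Benjamini-Hochberg (BH) adjustment over all genes tested at an FDR of 0.05. "Fell" and "rose" are used below only for genes past this threshold.

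In petal, 26 of the 42 tested members called in corolla fell from day 1 to day 7 and 0 rose, where 6.05% of all genes tested fell and 4.12% rose (10.2% in either direction). An unadjusted limma p below 0.05 was found for 37 of the 42, and for 6916 of all 23433 genes tested. The 26 that fell were 9 of 11 methyl cycle genes, 9 of 12 PMT genes, 4 of 5 lipid, sterol and quinone genes, 2 of 6 O-methyltransferases, 1 of 5 others, the single one-carbon gene and neither of the 2 protein genes. Of the 26, 20 were genes that the authors also called in petal, and all of those passed. These 20 included 7 methyl cycle genes, 6 PMT genes, 3 lipid, sterol and quinone genes and 2 O-methyltransferases. Of the 22 tested members called in corolla alone, 6 fell and 0 rose. These 22 had missed the authors' thresholds in petal, so their count is tied to that choice as well. No matching share was taken for other genes called in corolla alone, and the shares that follow include genes called in both tissues. Of the members lower on day 7 in corolla, 68.4% fell in petal (26 of 38), beside 55.1% of the other described genes lower in corolla (507 of 921); the difference between these shares was not tested. Of the 6 members higher on day 7 in corolla, 4 could be tested in petal and 0 rose, beside 201 of 426 other such genes (47.2%). The count of 26 rests on the day 1 libraries of petal: it was 2 without the first of them and 12 without the second, and it was 8 when genes of low FPKM were kept.

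In corolla, 23 of the 24 members called in petal fell and 0 rose, where 15% of all genes tested fell and 6.52% rose (21.5% in either direction). An unadjusted limma p below 0.05 was found for 23 of the 24, and for 8121 of all 22407 genes tested. Of the 23 that fell, 20 were genes that the authors also called in corolla. Of the 4 members called in petal alone, 3 fell: the tocopherol O-methyltransferase c103540.graph_c0, QUA2 (c109453.graph_c1) and c98326.graph_c0, described as trans-resveratrol di-O-methyltransferase. By group, the 23 included all 7 methyl cycle genes, all 7 PMT genes and all 4 O-methyltransferases called in petal. Of these, all 7 methyl cycle genes, 6 PMT genes and 2 O-methyltransferases were also called in corolla, so corolla belongs to their choice. The 23 that fell were the 23 members lower on day 7 in petal, and 421 of 519 other such described genes fell too (81.1%). The fourth gene called in petal alone was a putative methyltransferase, c110021.graph_c0, which was higher on day 7 in petal. All 4 genes called in petal alone had missed the authors' thresholds in corolla, and the 519 other genes include some called in both tissues.

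Between tissues, members were found higher on either side. With both days averaged and all 8 libraries in 1 fit, 12 of 48 members were higher in corolla and 8 in petal by the same limma test, where 8.78% and 13.3% of all genes tested were, or 22% in either direction. Of the other described genes, 556 of 1848 were higher in corolla and 532 in petal. The split of members shifted to 17 and 5 when libraries were rescaled by the trimmed mean of M values and to 17 and 6 by the median of ratios, while that of all genes moved from 2323 and 3511 to 3282 and 3033, and to 3328 and 3054. On the unscaled values the median corolla minus petal difference was 0.04 over members and -0.08 over all genes, on the log2(FPKM + 1) scale. By group, 3 methyl cycle genes and the one-carbon gene were higher in corolla and 0 in petal. In the PMT family 0 were higher in corolla and 3 in petal, and the O-methyltransferases had 3 and 1. The 20 became 13 without either of the corolla day 1 libraries.

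**Figure D2:**
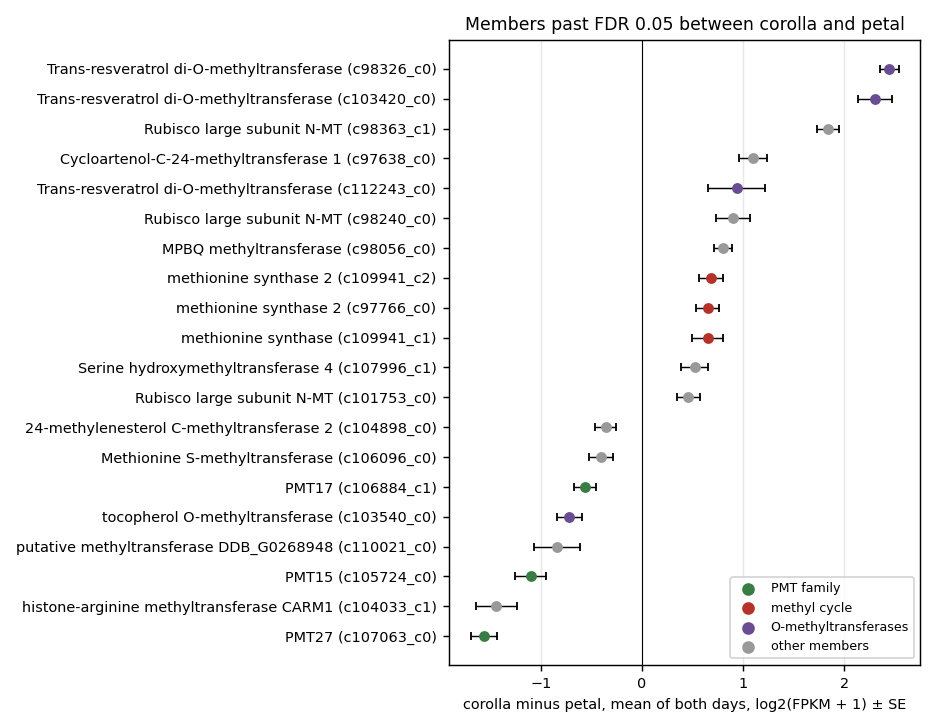
The 20 members past an FDR of 0.05 between corolla and petal, as the mean corolla minus petal difference of both days on the log2(FPKM + 1) scale (x axis) with bars of 1 SE from limma over 8 libraries, coloured by group. The values run from 2.45 for a trans-resveratrol di-O-methyltransferase (c98326.graph_c0) to -1.56 for PMT27 (c107063.graph_c0).

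The methyl cycle genes together held 5126 ± 116 FPKM (SD, n = 2) in corolla on day 1 and 1818 ± 113 on day 7, and 4065 ± 528 and 1281 ± 279 FPKM in petal. S-adenosylmethionine synthase and methionine synthase made up most of this sum. Among the members, methylenetetrahydrofolate reductase, which makes the methyl folate that methionine synthase uses, and adenosylhomocysteinase had lower levels. This sum and the sums of members below hold only genes called between the days, since other genes have no description. Copies of these enzymes that were not called are left out, and the difference of the sums between days describes the choice.

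S-adenosylmethionine synthase 1 (c107477.graph_c0), which makes the methyl donor from methionine and ATP, had 1922 and 2012 FPKM in corolla on day 1 and 812 and 916 on day 7, with 2082 and 1722 in petal on day 1 and 525 and 691 on day 7. Every day 7 library was below every day 1 library, and the tissues overlapped on day 1 and were apart on day 7. The authors called it in corolla alone. In petal it fell by 1.65 on the log2(FPKM + 1) scale (SE 0.25, limma BH-adjusted p = 0.0222). Without the first petal day 1 library that adjusted p was 0.190, and without the second 0.118. A second S-adenosylmethionine synthase gene (c94336.graph_c0), called in both tissues, had 154 and 131 FPKM in corolla on day 1 and 70.6 and 64.5 on day 7, with 183 and 159 in petal on day 1 and 64.8 and 81.9 on day 7. Its day 7 libraries were all below its day 1 libraries.

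Methionine synthase, which moves the methyl group from folate to homocysteine, was represented by 4 assembled genes. Of these, 2 (c109941.graph_c1 and c109941.graph_c2) come from the same component of the assembly, so reads may be divided between them and levels of single copies are uncertain. The highest, c109941.graph_c2, had 1186 and 1130.2 FPKM in corolla on day 1 and 355 and 373 on day 7, with 779 and 655 in petal on day 1 and 197 and 264 on day 7. Corolla was above petal on each day with no overlap, and day 7 was below day 1 in each tissue. Its corolla minus petal difference was 0.68 on the log2(FPKM + 1) scale (SE 0.12, limma BH-adjusted p = 0.00441). The next, c97766.graph_c0, had 744 and 697 FPKM in corolla on day 1 and 232 and 237 on day 7, with 528 and 428 in petal on day 1 and 127 and 162 on day 7, in the same order of groups, with a difference of 0.65 (SE 0.11, limma BH-adjusted p = 0.00426).

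The gene c109941.graph_c1 had 714 and 693 FPKM in corolla on day 1 and 182 and 207 on day 7, with 471 and 431 in petal on day 1 and 95.4 and 158 on day 7. Corolla was again above petal on both days, by 0.65 on the log2(FPKM + 1) scale (SE 0.15, limma BH-adjusted p = 0.0172). This call was lost without either corolla day 1 library (adjusted p = 0.0636 and 0.0580), without the second corolla day 7 library (0.0577) or without the second petal day 1 library (0.0663), by the same BH adjustment in limma. The weakest of the 4, c107452.graph_c0, had 93.9 and 77 FPKM in corolla on day 1 and 25.3 and 28.6 on day 7, with 87.8 and 60.5 in petal on day 1 and 19.2 and 26.9 on day 7 and did not pass between tissues. All 4 genes were called by the authors in both tissues. Summed over the 4, methionine synthase stood at 2668 ± 99.6 FPKM (SD, n = 2) in corolla on day 1 and 1720 ± 206 in petal, and at 820 ± 35.0 and 525 ± 122 FPKM on day 7. In the first corolla day 1 library, c109941.graph_c1 had 714 FPKM from 4362 reads, and c97766.graph_c0 had 744 FPKM from 9525. Their assembled lengths are thus unlike, and if any of the 4 are pieces of 1 transcript, the sum counts it more than once.

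Adenosylhomocysteinase had 2 genes. The first, c79798.graph_c0, had 85.9 and 64.4 FPKM in corolla on day 1 and 19.6 and 17.4 on day 7, with 106 and 68.5 in petal on day 1 and 15.4 and 26.1 on day 7, with overlapping tissues on each day. The authors called it in corolla only, and in petal it fell by 2.03 on the log2(FPKM + 1) scale (SE 0.32, limma BH-adjusted p = 0.0240). Without the first petal day 1 library the adjusted p was 0.0835. The second, c83018.graph_c0, had 40.1 and 44.1 FPKM in corolla on day 1 and 8.13 and 14.7 on day 7, with 40.7 and 36.1 in petal on day 1 and 8.24 and 13 on day 7 and was called in both tissues. For both genes, all day 7 libraries were below all day 1 libraries.

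Methylenetetrahydrofolate reductase had 3 genes. The gene c95205.graph_c0 had 203 and 128 FPKM in corolla on day 1 and 8.6 and 12.7 on day 7, with 87.2 and 60.3 in petal on day 1 and 16.4 and 35.3 on day 7. Its corolla libraries were far below day 1 on day 7, by -3.82 on the log2(FPKM + 1) scale, the difference by which it was chosen, and corolla was above petal on day 1 and below it on day 7. In petal the difference was -1.55 and did not pass (limma BH-adjusted p = 0.0618); whether the day difference itself differs between the tissues was not tested, since it rests on the contrast that chose the gene. The gene c105573.graph_c0, called in both tissues, had 63.2 and 64.2 FPKM in corolla on day 1 and 22.9 and 26.1 on day 7, with 71.6 and 67.7 in petal on day 1 and 14 and 19.2 on day 7. The third, c68424.graph_c0, was weak, with 2.48 and 2.91 FPKM in corolla on day 1 and 0.16 and 0.73 on day 7, with 1.77 and 2.68 in petal on day 1 and 0.31 and 0.35 on day 7, and its petal difference did not pass (limma BH-adjusted p = 0.0561). Neither of these 2 genes passed between tissues.

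**Figure D3:**
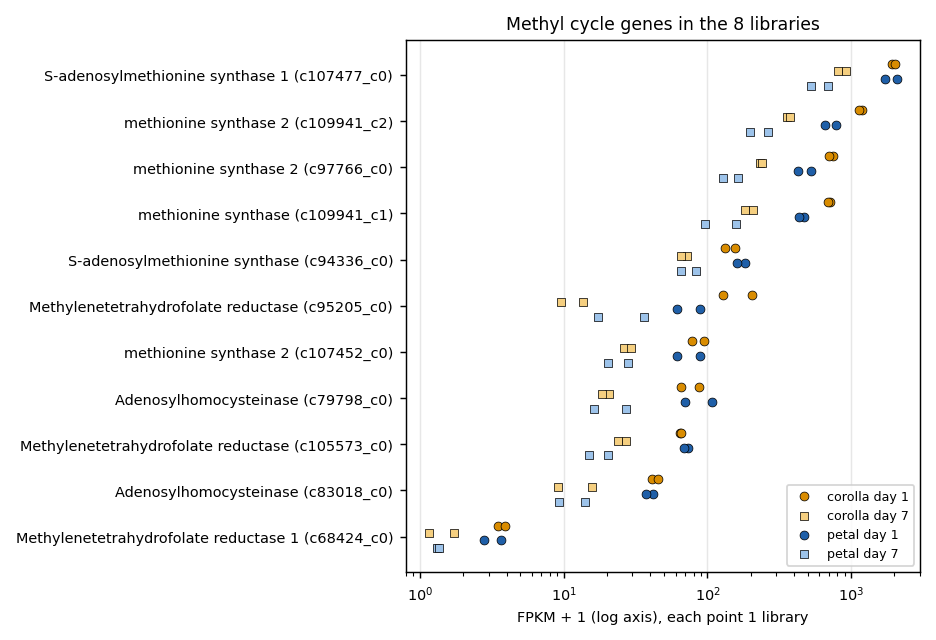
FPKM + 1 (x axis, log scale) of the 11 methyl cycle genes in each of the 8 libraries, 1 point a library, with corolla in orange and petal in blue and with circles for day 1 and squares for day 7. In every gene the squares of a tissue lie to the left of its circles.

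Serine hydroxymethyltransferase feeds carbon from serine into the folate pool that supplies the methyl cycle. It met the rule by the letters of its name and is itself no methyltransferase. The gene described as serine hydroxymethyltransferase 4 (c107996.graph_c1) had 423 and 422 FPKM in corolla on day 1 and 146 and 161 on day 7, with 356 and 285 in petal on day 1 and 81.7 and 118 on day 7. Corolla lay above petal on each day, and day 7 below day 1 in each tissue. The corolla minus petal difference was 0.52 on the log2(FPKM + 1) scale (SE 0.13, limma BH-adjusted p = 0.0234). This call was lost with no trend in the prior variance (limma BH-adjusted p = 0.0661). Leaving out either corolla day 1 library, the second corolla day 7 library or the second petal day 1 library also ended it. The assembled gene also carries pentatricopeptide repeats in its Pfam list, so it may join more than 1 transcript.

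Other genes of methionine and sulphur supply and of side branches of the methyl cycle, taken by description, numbered 6. Between tissues 3 were higher in corolla and 0 in petal with both days averaged, beside 556 and 532 of 1848 described genes that were no members. The 3 were side branch genes: c101261.graph_c0, described as thermospermine synthase, and 2 adenosine kinase genes. Cystathionine gamma-synthase (c105976.graph_c0), cysteine synthase (c102532.graph_c0) and methionine gamma-lyase (c102763.graph_c2) did not pass between tissues (limma BH-adjusted p = 0.762, 0.684 and 0.749). In corolla, 4 of the 4 called in petal fell, beside 422 of 764 such genes. In petal, 1 of the 3 called in corolla fell, beside 510 of 1347. That gene was c105976.graph_c0, which the authors called in both tissues, so the tested tissue also belongs to its choice in both counts. The genes called in corolla alone, c101261.graph_c0 and c102532.graph_c0, did not pass in petal (limma BH-adjusted p = 0.0609 and 0.0885). Cystathionine gamma-synthase (c105976.graph_c0), which commits carbon to methionine, had 739 and 649 FPKM in corolla on day 1 and 118 and 109 on day 7, with 631 and 483 in petal on day 1 and 116 and 146 on day 7. Both tissues were lower on day 7 with no overlap. Adenosine kinase, which clears the adenosine released by adenosylhomocysteinase, had 2 genes (c104515.graph_c2 and c107337.graph_c1) that were higher in corolla by 1.06 and 1.58 on the log2(FPKM + 1) scale (limma BH-adjusted p = 0.000111 and 0.000129). Both of them fell in corolla, by 0.85 and 0.99 on the same scale (limma BH-adjusted p = 0.00346 and 0.00505).

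The O-methyltransferases differed among themselves. Their sum was 10726 ± 338 FPKM (SD, n = 2) in corolla on day 1, 6932 ± 802 in corolla on day 7, 4500 ± 56.4 in petal on day 1 and 2695 ± 776 in petal on day 7. A pair of genes described as trans-resveratrol di-O-methyltransferase held most of it. That description comes from a grapevine enzyme that methylates a stilbene; the substrate of the narcissus proteins is not given by it. There were 4 genes so described, and closely alike copies could exchange reads, so their single levels are uncertain.

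The highest of them, c103420.graph_c0, had 8703 and 8166 FPKM in corolla on day 1 and 2833 and 3158 on day 7, with 2070.3 and 1842 in petal on day 1 and 420.1 and 664 on day 7. All 4 corolla libraries were above all 4 petal libraries, which held for 3 members and for 5.62% of all genes tested, and day 7 was below day 1 in each tissue. The corolla minus petal difference was 2.30 on the log2(FPKM + 1) scale (SE 0.16, limma BH-adjusted p = 4.82e-05). The day 7 minus day 1 differences, by which it was chosen, were -1.49 in corolla and -1.88 in petal.

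The gene c54333.graph_c0 went the other way in corolla, with 1528 and 1662 FPKM in corolla on day 1 and 3139.6 and 3941 on day 7, with 1748 and 1953 in petal on day 1 and 1485 and 2221 on day 7. Corolla on day 7 stood above the 6 other libraries, which lay between 1485 and 2221 FPKM. The authors called it in corolla, where the difference between days was 1.14 on the log2(FPKM + 1) scale. In petal the difference was -0.02 and did not pass (limma BH-adjusted p = 0.972). On day 7 corolla was above petal by 0.95, which is a description because the same corolla libraries chose the gene, and with both days averaged it did not pass. On day 7 corolla therefore held 2833 and 3158 FPKM of c103420.graph_c0 beside 3140 and 3941 FPKM of c54333.graph_c0, while on day 1 it held 8703 and 8167 FPKM beside 1528 and 1662 FPKM.

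The other 2 genes so described were weaker. The gene c98326.graph_c0 had 320.3 and 291 FPKM in corolla on day 1 and 176 and 177 on day 7, with 75 and 76.8 in petal on day 1 and 20.2 and 25.6 on day 7, and all 4 corolla libraries were above all 4 petal libraries. It was higher in corolla by 2.45 on the log2(FPKM + 1) scale (SE 0.09, limma BH-adjusted p = 2.41e-06). Called by the authors in petal alone, it fell in corolla by 0.78 (SE 0.08, limma BH-adjusted p = 0.00573); without the first corolla day 1 library the adjusted p was 0.0577. The gene c112243.graph_c0 had 38.4 and 41 FPKM in corolla on day 1 and 7.79 and 14.3 on day 7, with 24.6 and 15.9 in petal on day 1 and 3.16 and 8.17 on day 7, with corolla above petal on day 1 and overlapping on day 7. Its corolla minus petal difference was 0.94 (SE 0.28, limma BH-adjusted p = 0.0456). The call was lost with a pseudocount of 0.1, with no filter and with no trend (limma BH-adjusted p from 0.0538 to 0.0872). It was also lost on leaving out any single library other than the first corolla and the second petal library of day 7.

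**Figure D4:**
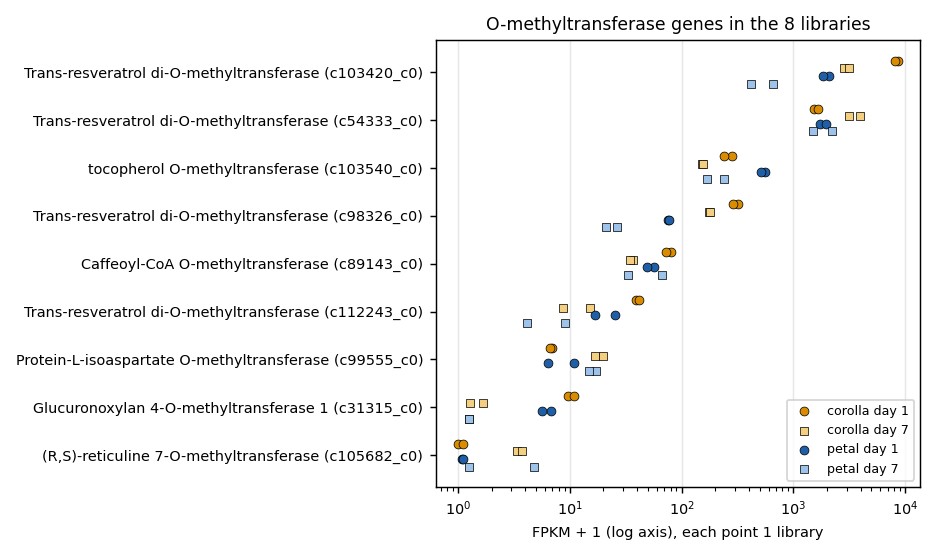
FPKM + 1 (x axis, log scale) of the 9 O-methyltransferase genes in each of the 8 libraries, 1 point a library, with corolla in orange and petal in blue and with circles for day 1 and squares for day 7. For c103420.graph_c0 and c98326.graph_c0 all orange points lie to the right of all blue points, and for c54333.graph_c0 the orange squares of corolla day 7 lie farthest right.

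Tocopherol O-methyltransferase (c103540.graph_c0), which acts at the last step towards alpha-tocopherol in plastids, had 282 and 239.7 FPKM in corolla on day 1 and 150.2 and 155 on day 7, with 555 and 509.8 in petal on day 1 and 169 and 241 on day 7. Petal was above corolla on each day, most so on day 1. The corolla minus petal difference was -0.72 on the log2(FPKM + 1) scale (SE 0.12, limma BH-adjusted p = 0.00467). Called in petal alone, it fell in corolla by 0.76 (SE 0.10, limma BH-adjusted p = 0.0106), with an adjusted p of 0.0703 without the first corolla day 1 library. Caffeoyl-CoA O-methyltransferase (c89143.graph_c0), an enzyme of lignin precursors, had 80 and 72.2 FPKM in corolla on day 1 and 35.6 and 33.9 on day 7, with 55.2 and 48.6 in petal on day 1 and 32.1 and 65.8 on day 7. Corolla was lower on day 7 with no overlap, while the petal libraries of the 2 days overlapped and did not pass.

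The remaining O-methyltransferases were under 20 FPKM in every library. Protein-L-isoaspartate O-methyltransferase (c99555.graph_c0), which takes part in the repair of aged proteins, had 5.89 and 5.65 FPKM in corolla on day 1 and 18.7 and 16 on day 7, with 5.35 and 9.92 in petal on day 1 and 16.1 and 13.9 on day 7. It was higher on day 7 in both tissues with no overlap, and its petal difference did not pass (limma BH-adjusted p = 0.106). Glucuronoxylan 4-O-methyltransferase 1 (c31315.graph_c0), which methylates side chains of xylan in the wall, had 8.7 and 9.82 FPKM in corolla on day 1 and 0.69 and 0.29 on day 7, with 5.86 and 4.67 in petal on day 1 and 0.25 and 0.25 on day 7. It was close to 0 on day 7 in both tissues. The gene described as reticuline 7-O-methyltransferase (c105682.graph_c0), an enzyme of benzylisoquinoline alkaloids in poppies, had 0 and 0.11 FPKM in corolla on day 1 and 2.38 and 2.72 on day 7, with 0.09 and 0.11 in petal on day 1 and 0.26 and 3.8 on day 7. Apart from both corolla libraries of day 7 and the second petal library of day 7 it was near 0, and it was too low to be tested in petal alone.

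The PMT family summed to 1986 ± 134 FPKM (SD, n = 2) in corolla on day 1 and 672 ± 29.7 on day 7, and to 2192 ± 184 and 860 ± 78.2 FPKM in petal. All 13 genes were lower on day 7 in both tissues with no overlap between the days, where 37.1% of all genes tested were so in corolla and 33% in petal. They are named after the numbered PMT proteins of Arabidopsis that their descriptions match. The enzymatic role of most of these proteins is not settled, while QUASIMODO2 is needed in Arabidopsis for normal pectin and cell adhesion.

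The strongest PMT gene was PMT21 (c108907.graph_c0), with 678 and 618 FPKM in corolla on day 1 and 186 and 184 on day 7, with 812 and 722 in petal on day 1 and 187 and 222 on day 7. Petal was above corolla on each day, narrowly so on day 7, and it did not pass between tissues with both days averaged. PMT2 (c100454.graph_c0) had 479 and 484 FPKM in corolla on day 1 and 173 and 155 on day 7, with 496 and 439 in petal on day 1 and 161 and 222 on day 7. Its tissues overlapped on both days. Both genes were called by the authors in both tissues, with day 7 minus day 1 differences of -1.80 in corolla and -1.90 in petal for PMT21, and -1.55 and -1.30 for PMT2, on the log2(FPKM + 1) scale.

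The gene described as pectin methyltransferase QUA2 (c109453.graph_c1), the QUASIMODO2 of Arabidopsis, had 138 and 126 FPKM in corolla on day 1 and 68.3 and 71.4 on day 7, with 139 and 130.3 in petal on day 1 and 38.5 and 52.3 on day 7. Day 7 was below day 1 in each tissue, and corolla was above petal on day 7 only. The authors called it in petal. In corolla it fell by 0.91 on the log2(FPKM + 1) scale (SE 0.09, limma BH-adjusted p = 0.00454), and it passed under each alternative run. In the authors' deposited table its corolla FDR was 0.00870 with a log2 fold change of -0.85, inside their FDR threshold and outside their fold threshold.

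PMT26 (c108367.graph_c1) had 143 and 123 FPKM in corolla on day 1 and 45.2 and 41.6 on day 7, with 158 and 133 in petal on day 1 and 37.2 and 45.5 on day 7. PMT8 (c108614.graph_c0) had 126 and 108 FPKM in corolla on day 1 and 43.7 and 43.6 on day 7, with 130.3 and 121 in petal on day 1 and 37.9 and 42.4 on day 7. In both genes the days were apart in each tissue, and neither passed between tissues. A gene described as PMT11 (c87139.graph_c0) had 42.5 and 40.9 FPKM in corolla on day 1 and 16.4 and 17 on day 7, with 48.8 and 37.6 in petal on day 1 and 16.3 and 17.9 on day 7, and another (c107931.graph_c0) had 38.4 and 30 FPKM in corolla on day 1 and 12 and 13.3 on day 7, with 32.8 and 33.9 in petal on day 1 and 12.8 and 17.2 on day 7. The latter, called in corolla alone, fell in petal by 1.11 on the log2(FPKM + 1) scale (SE 0.18, limma BH-adjusted p = 0.0266), with an adjusted p of 0.16 and 0.153 without the first and the second petal day 1 library. A gene described as PMT13 (c94940.graph_c0) had 9.81 and 8.27 FPKM in corolla on day 1 and 2.79 and 3.79 on day 7, with 12.3 and 10.2 in petal on day 1 and 2.64 and 3.56 on day 7. The other 2 genes described as PMT13 (c95325.graph_c0 and c89898.graph_c0) ranged from 0.56 to 9.51 FPKM, were called in corolla alone and did not pass in petal.

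**Figure D5:**
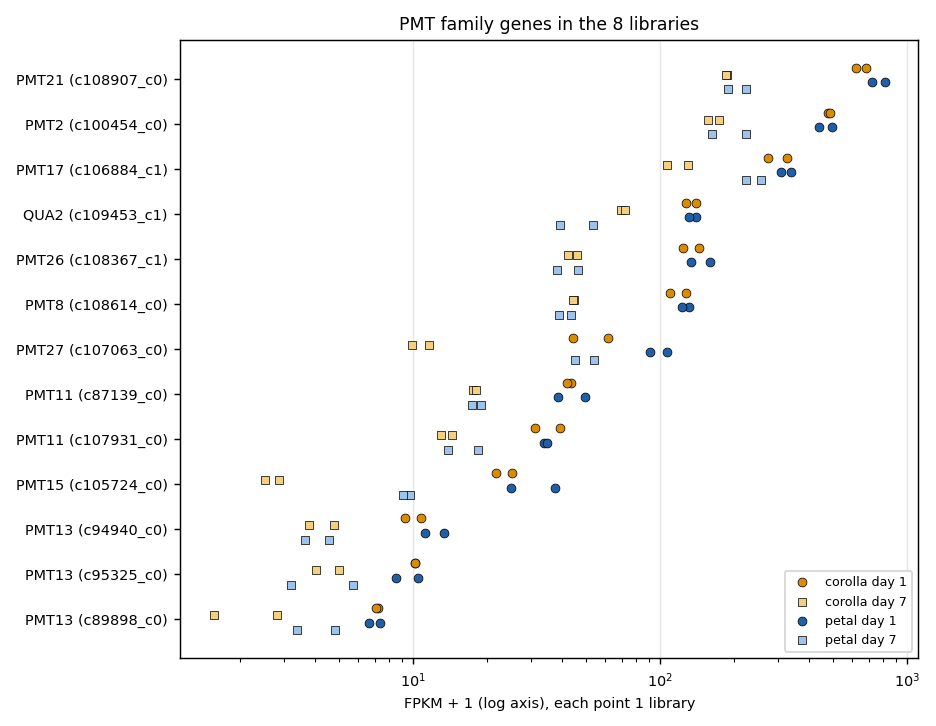
FPKM + 1 (x axis, log scale) of the 13 PMT family genes in each of the 8 libraries, 1 point a library, with corolla in orange and petal in blue and with circles for day 1 and squares for day 7. For PMT27, PMT17 and PMT15 the petal squares lie to the right of the corolla squares, while for most other genes the squares of both tissues lie closer together.

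The 3 PMT genes that passed between tissues were all higher in petal. On the log2(FPKM + 1) scale the tissues were farther apart on day 7 in all 3, a description because the corolla libraries chose them. In FPKM the gap between the tissue means was wider on day 7 for PMT17 only. PMT27 (c107063.graph_c0) had 60.5 and 43.4 FPKM in corolla on day 1 and 10.6 and 8.92 on day 7, with 106 and 89.8 in petal on day 1 and 44.2 and 53.1 on day 7. Petal was above corolla on each day, by an average of 1.56 on the log2(FPKM + 1) scale, so that corolla minus petal was -1.56 (SE 0.13, limma BH-adjusted p = 0.000117). Taken by day, corolla minus petal was -0.91 on day 1 and -2.21 on day 7, given without a test because the same corolla libraries chose the gene. In petal it fell by 0.99 (SE 0.16, limma BH-adjusted p = 0.0260), with an adjusted p of 0.212 and 0.112 without the first and the second petal day 1 library.

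PMT15 (c105724.graph_c0) had 24.2 and 20.6 FPKM in corolla on day 1 and 1.86 and 1.52 on day 7, with 36.4 and 23.9 in petal on day 1 and 8.76 and 8.07 on day 7. The tissues overlapped on day 1, and on day 7 both corolla libraries were below both petal libraries. The corolla minus petal difference was -1.10 on the log2(FPKM + 1) scale with both days averaged (SE 0.15, limma BH-adjusted p = 0.00148). On day 7 alone it was -1.81, again a description. In petal it fell by 1.70 (SE 0.23, limma BH-adjusted p = 0.0179), with an adjusted p of 0.0961 without the first petal day 1 library.

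PMT17 (c106884.graph_c1) had 326 and 273 FPKM in corolla on day 1 and 128 and 106 on day 7, with 336 and 308 in petal on day 1 and 254 and 222 on day 7. It overlapped between tissues on day 1 and was higher in petal on day 7. Corolla minus petal was -0.56 on the log2(FPKM + 1) scale (SE 0.11, limma BH-adjusted p = 0.00666) with both days averaged. On day 7 alone it was -1.02, a description for the same reason. Its petal day 7 libraries were below those of day 1 by a difference of -0.44 that did not pass (limma BH-adjusted p = 0.137). All 3 genes were called by the authors in corolla alone. Whether their day difference differs between the tissues was not tested, because the corolla part of it chose them.

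Genes with the name of a pectin enzyme in their description, other than members, numbered 22, of which 21 could be tested between tissues. With both days averaged, 3 of the 21 were higher in corolla and 11 in petal, beside 556 and 532 of 1848 described genes that were no members. The list also took in polygalacturonase inhibitors, whose names hold that of the enzyme. Of these, c105289.graph_c0, c105289.graph_c1 and c106485.graph_c0 were among the 11 higher in petal, while c100912.graph_c0 and c94845.graph_c0 did not pass. In petal, 6 of the 16 tested genes called in corolla fell and 1 rose, beside 510 and 203 of 1347 described genes that were no members. In corolla, 4 of 8 called in petal fell and 1 rose, beside 422 and 151 of 764 such genes. In both counts the falls include c101521.graph_c0, c102181.graph_c1 and c103484.graph_c0, and the gene that rose is c99075.graph_c0. The authors called these genes in both tissues, so the tested tissue also belongs to their choice. The counts of other described genes were not split in this way.

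Among the lipid, sterol and quinone methyltransferases, 4 of 6 genes were lower on day 7 in both tissues with no overlap, and 2 were higher. Of all genes tested, 37.1% were so lower and 26.5% higher in corolla, and 33% and 26% in petal. The highest mean level was that of 24-methylenesterol C-methyltransferase 2 (c104898.graph_c0), which adds the second methyl group to the sterol side chain. It had 94.4 and 98.6 FPKM in corolla on day 1 and 30 and 34 on day 7, with 147 and 112 in petal on day 1 and 38.5 and 41.2 on day 7. Petal was above corolla on each day, by a corolla minus petal difference of -0.36 on the log2(FPKM + 1) scale (SE 0.11, limma BH-adjusted p = 0.0434). The call was lost under both rescalings, with no trend, with no filter, with the repeat number as a block (limma BH-adjusted p = 0.0578) and without any single library except the second petal library of day 1, with adjusted p from 0.0549 to 0.150.

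Cycloartenol-C-24-methyltransferase 1 (c97638.graph_c0), which adds the first methyl group to that side chain, had 127 and 103 FPKM in corolla on day 1 and 26.6 and 27.7 on day 7, with 58.4 and 47.7 in petal on day 1 and 9.98 and 14.8 on day 7. Here corolla was above petal on each day, by 1.10 on the log2(FPKM + 1) scale (SE 0.14, limma BH-adjusted p = 0.000926). The 2 sterol enzymes thus stood on opposite sides between the tissues, though the call of c104898.graph_c0 was lost under the alternatives given above. Both genes were called in both tissues between the days.

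Phosphoethanolamine N-methyltransferase 1 (c101855.graph_c1), which makes the choline head group of phospholipids, was singled out after its values were seen, for its difference between days. It had 108 and 71.9 FPKM in corolla on day 1 and 3.59 and 2.64 on day 7, with 139.9 and 106 in petal on day 1 and 2.92 and 4.3 on day 7. Day 7 was near the bottom of the members' range in both tissues, with day 7 minus day 1 differences of -4.45 in corolla and -4.75 in petal on the log2(FPKM + 1) scale, by which it was chosen. The tissues overlapped on both days and it did not pass between tissues.

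The other 3 genes of the group were described as 2-methyl-6-phytyl-1,4-hydroquinone methyltransferase, an enzyme of plastoquinone and tocopherol synthesis in plastids. Of these, c98056.graph_c0 ranged from 27.1 to 113.8 FPKM and was higher in corolla by 0.81 on the log2(FPKM + 1) scale (SE 0.09, limma BH-adjusted p = 0.000461). Both corolla libraries were above both petal libraries on each day. It fell in petal by 0.96 (SE 0.15, limma BH-adjusted p = 0.0237), with an adjusted p of 0.195 and 0.147 without the first and the second petal day 1 library. The other 2 (c101517.graph_c0 and c99979.graph_c0) were at 2.89 FPKM or less except in the second petal library of day 7, which had 16.7 and 5.79 FPKM.

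The protein group held 2 genes. The gene described as protein arginine N-methyltransferase 3 (c107769.graph_c2), an enzyme known for a ribosomal protein as substrate, had 604 and 659 FPKM in corolla on day 1 and 307 and 285 on day 7, with 705 and 627 in petal on day 1 and 366 and 428 on day 7. It was lower on day 7 in both tissues with no overlap, and neither its petal difference nor its tissue difference passed. Its Pfam list also holds glycosyl hydrolase domains of family 32, so this assembled gene may join transcripts. The gene described as histone-arginine methyltransferase CARM1 (c104033.graph_c1), which is known to methylate histone H3, had 6.61 and 3.52 FPKM in corolla on day 1 and 11.3 and 9.82 on day 7, with 13.2 and 21.4 in petal on day 1 and 25.2 and 28.9 on day 7. All 4 corolla libraries were below all 4 petal libraries, which held for no other member and for 9.19% of all genes tested. Corolla minus petal was -1.44 on the log2(FPKM + 1) scale (SE 0.20, limma BH-adjusted p = 0.00169). It was among the members higher on day 7, and its petal difference did not pass (limma BH-adjusted p = 0.158).

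Of the 6 other members, 3 were described as the N-methyltransferase of the large subunit of Rubisco, the carbon-fixing enzyme of chloroplasts. All 3 were higher in corolla with both corolla libraries above both petal libraries on each day. The strongest difference was in c98363.graph_c1, with 39.2 and 37.3 FPKM in corolla on day 1 and 8.78 and 8.8 on day 7, with 7.65 and 7.12 in petal on day 1 and 2.37 and 2.79 on day 7. All 4 of its corolla libraries were above all 4 petal libraries, by 1.84 on the log2(FPKM + 1) scale (SE 0.11, limma BH-adjusted p = 1.96e-05). The other 2, c98240.graph_c0 and c101753.graph_c0, were higher in corolla by 0.90 and 0.46 (limma BH-adjusted p = 0.00667 and 0.0239). For c101753.graph_c0 the call was lost with no trend (limma BH-adjusted p = 0.05715). It was also lost without either corolla day 1 library, the second corolla day 7 library or either petal day 1 library.

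The gene with the highest mean level in that group was c110021.graph_c0, described as a putative methyltransferase after a slime mould gene, with 26.8 and 27.6 FPKM in corolla on day 1 and 47.7 and 19.8 on day 7, with 38 and 32.8 in petal on day 1 and 76.8 and 79 on day 7. It was higher in petal by a corolla minus petal difference of -0.84 on the log2(FPKM + 1) scale (SE 0.23, limma BH-adjusted p = 0.0336), with corolla below petal on each day. This call was lost with no filter, with no trend and on rescaling by the trimmed mean of M values (limma BH-adjusted p from 0.0524 to 0.0736). Leaving out any single library of day 1, or either petal library of day 7, also ended it. Its corolla day 7 libraries were far apart: the difference was -0.53 without the second of them and -1.14 without the first. Methionine S-methyltransferase (c106096.graph_c0), which makes S-methylmethionine, ranged from 5.52 to 15.2 FPKM. Corolla was above petal on day 1 and below it on day 7. Corolla minus petal was -0.41 with both days averaged (SE 0.12, limma BH-adjusted p = 0.0412). By day it was 0.23 on day 1 and -1.05 on day 7, given without a test because the corolla libraries chose the gene. The averaged call was lost under both rescalings, with no trend and with no filter (limma BH-adjusted p from 0.0694 to 0.119). It was also lost without any single library except the first corolla and the second petal library of day 7. A gene described as tetrahydroprotoberberine N-methyltransferase (c101528.graph_c0), an alkaloid enzyme of poppies, ranged from 1.04 to 9.49 FPKM. With both days averaged it did not pass between tissues (limma BH-adjusted p = 0.105); on day 1 corolla was above petal, and on day 7 the tissues overlapped. Its domain list also names a cyclopropane fatty acid synthetase and an amine oxidoreductase.

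Taken by day, 10 members were higher in corolla and 3 in petal on day 1, where 6.11% and 7.8% of all genes tested were (13.9% in either direction). On day 7 they were 9 and 6, where 4.06% and 6.24% of all genes tested were (10.3% in either direction). These comparisons share libraries with the choice of members, so the counts are a description and not a result about the members. Counted on day 7 are c54333.graph_c0, PMT15, PMT17, PMT27 and c106096.graph_c0, whose day 7 differences are given above as descriptions. Without 1 library the day 1 count of 13 was 7 and 5 (first and second corolla library of day 1) or 6 and 5 (first and second petal library of day 1). The day 7 count of 15 was 9 without the second corolla library of day 7.

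Some called members lay near the authors' thresholds. In the authors' deposited table for corolla, the called member with the largest FDR was c95325.graph_c0 at 0.00894, and the smallest fold among called members was a log2 fold change of -1.04 for c107769.graph_c2. In their petal table the largest FDR of a called member was 0.00772, for c109941.graph_c2, and the smallest FDR of a member not called was 0.0171, for c95325.graph_c0. The smallest fold among members called in petal was a log2 fold change of -1.25, for c94336.graph_c0.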

How the data were processed

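Expression was measured by RNA-seq in 8 libraries of narcissus corolla and petal. For each tissue the authors deposited a table of all genes with FPKM rounded to 2 decimals, an FDR (adjusted p-value) and a log2 fold change, per the file headers. The other deposited tables hold read counts and descriptions for the genes the authors called only, so no count test was run over all genes. Bowtie and RSEM are named in the submitters' processing notes, with no role or version; the tool behind the authors' FDR and fold change was not given in the sources used here. FPKM is scaled per library, and levels set across tissues come from 2 tables.

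The members and lists were chosen with earlier results of these data known. Members were sorted into groups by words in their descriptions, and QUA2, the short form of QUASIMODO2, was added to the PMT words after the descriptions were seen. Named with all values were the methyl cycle and O-methyltransferase genes, PMT genes with a group mean of at least 10 FPKM, and in each other group the member with the highest mean and that with the largest tissue difference past the threshold.

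Two-sided tests on log2(FPKM + 1) came from limma 3.58.1 (R 4.3.3), whose prior variance followed a trend, with Benjamini-Hochberg adjustment over all genes tested at an FDR of 0.05. A pseudocount of 1 understates the change of weak genes. A gene was tested where 2 or more libraries reached 1 FPKM: 26460 of the 50576 genes in both tables with all 8 libraries, 22407 with the 4 corolla libraries and 23433 with the 4 petal libraries. All 48 members passed this filter over 8 libraries and over corolla, and 46 over petal. Relative depth was the median ratio of reads per FPKM to that of the first day 1 library, over 441 called genes in corolla and 236 in petal with at least 20 FPKM throughout. Alternatives were other pseudocounts and filters, rescaling with edgeR 4.0.16, no trend, a repeat block and leaving out each library. The test was checked on simulated data.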

Additional observations from a re-analysis of the deposited data

How the results depend on the processing

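The counts of members past the threshold kept their direction and stayed within 1.5 times the reported value under other pseudocounts, rescaling and a filter of at least 5 FPKM. Leaving out 1 library at a time gave 13 to 24 members between tissues with both days averaged (20 reported), 5 to 16 on day 1 (13), 9 to 18 on day 7 (15), 2 to 33 for the petal day effect (26) and 18 to 24 for the corolla day effect (23). The day 7 count was 9 with no trend in the prior variance and 7 with only that day's 4 libraries; the cause was not tested. The petal count was 8 with no filter on low FPKM, where the adjustment ran over 67182 genes in place of 23433. With the repeat number as a block the counts were 19, 11, 15, 26 and 23 in the same order; the numbers were not taken to pair libraries, since deviations of same-numbered libraries correlated at 0.139 and 0.293 between tissues on the same day and about 0 across days.

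Of the 20 calls between tissues, 13 passed under every alternative. Of the 6 petal calls of members called in corolla alone, 0 did, and of the 3 corolla calls of members called in petal alone, 1 did. No call changed sign. Among members that did not pass, 13 of 28 tissue differences changed sign under some alternative and 8 passed under some, so their missing the threshold does not show equal levels. Groups of 2 libraries limit every test, and genes near 1 FPKM rest on few reads.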
